A study of Mus musculus with 23 samples.

Results

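The dystrophin glycoprotein complex is described here through 8 genes, taken by name from the deposited count table: Dmd, Utrn, Dag1, Sgca, Sgcb, Sgcd, Sntb1 and Jup. They are 8 of 54446 genes in that table and 8 of 15624 genes in a second deposited table, where they were found by the same Ensembl identifiers. RNA came from mouse skeletal muscle, much of it denervated, that is, cut off from its nerve, which leads to atrophy. The first set held 3 libraries of PAX4 KO muscle at 10 d after denervation, 3 of WT muscle at 10 d after denervation and 3 of innervated WT muscle. The second set held muscle at 10 d after denervation only: 3 libraries of the NRF1PAL-PAX4 double KD (double KD below), 3 of the NRF1PAL KD (NRF1 KD below) and 2 of WT con. PAX4 belongs to the paired box transcription factors, and NRF1 (alpha-PAL) is a transcription factor known for nuclear genes of mitochondria. The sources used here do not give the allele or vector behind the KO and the knockdowns, the promoter of any Cre, the named muscle or the age of the mice. Since the labels do not tie libraries to separate animals, a p-value here speaks of library-to-library spread, which may be technical.

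The complex spans the muscle fibre membrane and ties actin inside the fibre to laminin outside it. Dystrophin, or its autosomal relative utrophin, binds actin and beta-dystroglycan; alpha-dystroglycan binds laminin through its sugar chains; the sarcoglycans brace dystroglycan in the membrane; and syntrophins dock signalling proteins on dystrophin. In adult muscle dystrophin lines the whole membrane, whereas utrophin is concentrated at neuromuscular junctions and is also made by blood vessels. Plakoglobin, the product of Jup, is an armadillo-repeat protein of desmosomes and adherens junctions, close kin to beta-catenin, and has been placed with the complex at the membrane of muscle fibres.

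Depth was 21716216 to 42821396 counts per library in the first set and 23740769 to 30165765 recovered reads in the second. The tissue label fitted its markers: 6 fibre markers (Acta1, Ckm, Des, Tnnt3, Mylpf and Ryr1) summed to at least 46633 CPM (counts scaled to a fixed library total) in every library of the first set, and 6 epidermis markers to at most 3.89 CPM, with Krt5 at 0. Pax4 had 0 counts in all 9 libraries, WT included, so its counts did not check the KO. Nrf1 mRNA had 450, 427 and 454 normalised counts in the double KD, 499, 476 and 524 in the NRF1 KD and 488 and 444 in WT con, so Nrf1 mRNA was not lower in the NRF1 KD libraries than in WT con, and the double KD values overlapped those of WT con. The mRNA therefore did not check the NRF1 label, and NRF1 KD and double KD mean the libraries labelled so. In the first set, innervated library 2 held RNA of genes that denervation induces (Chrng, the fetal acetylcholine receptor subunit, 15.9 CPM against 0.197 and 0.105 in the other two), and denervated WT library 1 had less Chrng (84.4 CPM) than the other two (151 and 155). Some results are therefore also given without these 2 libraries, a choice made after seeing the data. On each side it drops the library nearest to the other group in Chrng, which tends to widen a difference that follows denervation. Values without these 2 libraries are therefore no independent support for such a difference.

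The genes lay on 6 chromosomes of GRCm38 (mm10). Dmd (ENSMUSG00000045103) spanned 2257272 bases of the X chromosome, chrX:82948870-85206141 on the plus strand, and the others lay on minus strands. Utrn (ENSMUSG00000019820) was at chr10:12382188-12869365, Dag1 (ENSMUSG00000039952) at chr9:108204634-108263958, Sgcb (ENSMUSG00000029156) at chr5:73632749-73647790 and Sntb1 (ENSMUSG00000060429) at chr15:55636388-55906949. Chromosome 11 held Sgca (ENSMUSG00000001508, chr11:94962791-94976327), Jup (ENSMUSG00000001552, chr11:100368958-100397763) and Sgcd (ENSMUSG00000020354, chr11:46896253-47988969). Sgcd spanned 1092717 bases for 8257 bases of merged exons, and Sgca 13537 bases for 1735. No exon of another annotated gene overlapped an exon of any of the 8 on either strand.

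Promoter sequence is shown for 4 genes: Jup and Sgca, whose levels tracked each other, Sgcd, which moved the other way, and Dmd. The Dmd window shown held the core letters of the NRF1 site. The window of Utrn, which was also called for denervation, is described below and not printed. Each run is the 250 bases before a RefSeq start (GRCm38.p6), 5′ to 3′ on the gene's strand. The Sgcd run lies inside the Sgcd span given above, before an internal start. Capitals mark 2 kinds of letters: CANNTG (the E-box, a site of muscle helix-loop-helix factors such as myogenin) and TGCGCA (the core of the NRF1 site). Both read the same on either strand.
Jup, chr11:100397791-100398040, minus strand: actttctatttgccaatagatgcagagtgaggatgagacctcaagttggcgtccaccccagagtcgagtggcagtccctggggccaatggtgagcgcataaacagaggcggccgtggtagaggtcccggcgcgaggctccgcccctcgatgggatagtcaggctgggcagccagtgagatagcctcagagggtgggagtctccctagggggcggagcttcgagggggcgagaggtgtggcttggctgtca
Sgca, chr11:94976328-94976577, minus strand: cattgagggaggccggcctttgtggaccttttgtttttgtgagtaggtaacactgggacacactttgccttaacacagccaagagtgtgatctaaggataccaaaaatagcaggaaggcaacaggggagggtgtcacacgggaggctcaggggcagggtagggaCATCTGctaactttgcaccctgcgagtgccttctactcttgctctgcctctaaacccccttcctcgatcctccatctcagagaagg
Sgcd, chr11:47379326-47379575, minus strand: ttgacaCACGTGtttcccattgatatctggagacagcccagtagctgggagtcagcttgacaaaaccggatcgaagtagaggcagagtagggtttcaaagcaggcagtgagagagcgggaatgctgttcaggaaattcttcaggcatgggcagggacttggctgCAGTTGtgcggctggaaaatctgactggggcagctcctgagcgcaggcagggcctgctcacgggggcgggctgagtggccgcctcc
Dmd, chrX:82948620-82948869, plus strand: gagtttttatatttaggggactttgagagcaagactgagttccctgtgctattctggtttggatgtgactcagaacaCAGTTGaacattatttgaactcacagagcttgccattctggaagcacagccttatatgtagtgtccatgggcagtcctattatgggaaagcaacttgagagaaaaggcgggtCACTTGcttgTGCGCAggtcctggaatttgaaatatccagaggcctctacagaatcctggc

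RefSeq entries were found for 7 of the 8 genes. Sntb1 had none, and Dag1 and Dmd had more than 1 start, which gave 9 windows of 250 bases. The core TGCGCA occurred in 1 of the 9 windows and in 6.43% of 32851 mouse promoter windows of the same length. It was the Dmd window shown, 51 bases before its start, and the other Dmd window held neither kind of letters. An E-box was in 6 of the 9 windows and in 66.2% of all windows: at 86 bases before the start of Sgca, at 244 and 86 bases before that of Sgcd, and at 173 and 61 bases before that of Dmd. The Utrn window held 7, of which those at 98 and 96 bases before the start overlap. That window lies inside the Utrn span given above, before an internal start. The 2 overlapping windows of Dag1 held 1 E-box each. These 2 are the same site, so 1 site of Dag1 counts in 2 of the 6 windows. The Jup window held neither. These matches describe the letters of the windows and nothing about binding.

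Levels were compared between the genes as CPM per kilobase of merged exons (RPKM). Sgca, the muscle-specific alpha-sarcoglycan, was the most abundant transcript of the 8 in all 3 groups of the first set, at 122 ± 21.4 RPKM in denervated PAX4 KO, 137 ± 36 RPKM in denervated WT and 103 ± 7.75 RPKM in innervated WT muscle (SD, n = 3 each). In innervated WT muscle it was followed by Dag1, the single gene of both dystroglycans (42.8 ± 6.73 RPKM), then Sgcb (29.0 ± 2.07), Jup (20.3 ± 2.02), Utrn (6.12 ± 0.84), Dmd (4.50 ± 0.61), Sgcd (3.28 ± 0.27) and Sntb1 (1.30 RPKM). With merged exons, no neighbours in that order overlapped over the 3 libraries. With the longest transcript in their place, Jup (40.7 RPKM) stood above Sgcb (31.0 RPKM). The ranges of Dag1 and Jup, of Utrn and Dmd, and of Dmd and Sgcd then overlapped. In denervated WT muscle Jup (37.0 ± 11 RPKM) stood second and overlapped Dag1 (35.3 ± 3.30 RPKM), and Dmd (5.0 ± 0.70 RPKM) stood above Utrn (3.83 ± 0.41 RPKM). Sgcd and Sntb1 overlapped there at the low end, at 2.14 ± 0.53 and 2.07 ± 1.09 RPKM. In denervated PAX4 KO muscle the ranges of Dag1 and Jup, of Jup and Sgcb, and of Dmd, Utrn, Sntb1 and Sgcd each met that of the next gene.

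**Figure D1:**
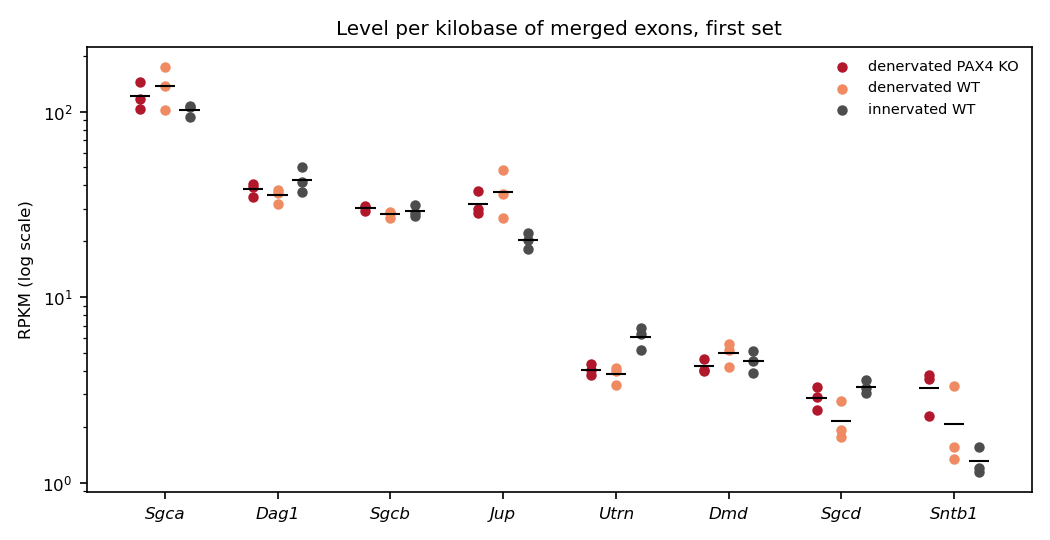
RPKM (log axis) of the 8 genes in the first set, ordered by innervated level; points are libraries, bars are means, and the groups run from denervated PAX4 KO through denervated WT to innervated WT. Sgca is highest in every group, and Utrn, Dmd, Sgcd and Sntb1 form the low end; innervated Utrn stands above, and innervated Jup below, both denervated groups.

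Denervation was examined first, in WT muscle. Jup rose, Utrn and Sgcd fell, and the other 5 genes were not called. The 3 called genes of 8 stand beside 32.3% of 16146 genes called in this comparison over all genes (16.5% higher and 15.8% lower), so the complex was called about as often as genes at large. The median log2 fold change of the 8 was 0.05, against 0.02 over all genes. All 8 passed the filter on low counts. The WT libraries were tested as unpaired, although the denervated and innervated columns share their numbers. Fold changes here and below come from edgeR's quasi-likelihood test in the first set and from limma in the second, with Benjamini-Hochberg adjustment over all genes, and a call is an adjusted p under 0.05.

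Among the cytoskeletal proteins, Utrn had 68.0, 57.7 and 70.9 CPM in denervated WT muscle, against 108, 89.0 and 117 CPM in innervated WT muscle. Every denervated library lay below every innervated one, and the lowest innervated value was that of library 2. Utrn fell by 0.68 ± 0.13 on the log2 scale (SE; 0.626-fold; adjusted p = 0.00362, edgeR). Its relative Dmd had 124, 133 and 100.5 CPM in denervated WT muscle, against 122, 92.6 and 107 CPM in innervated WT muscle, with overlapping groups (log2 fold change 0.15 ± 0.14, adjusted p = 0.443, edgeR). The ratio of Utrn to Dmd within a library, each per kilobase, was therefore 0.765, 0.603 and 0.982 in denervated WT muscle and 1.23, 1.34 and 1.52 in innervated WT muscle, groups that did not overlap. An exact permutation test of 3 against 3 libraries cannot give a two-sided p below 0.10, so none is given for this ratio.

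Utrn is also a gene of blood vessels, and markers of these moved with it: 9 endothelial markers summed to 483 to 641 CPM in denervated WT muscle and 872 to 951 CPM in innervated WT muscle, with 6 of 9 called lower. The 8 markers of smooth muscle and pericytes summed to 615 to 743 CPM in denervated WT and 1079 to 1391 CPM in innervated WT muscle, with 7 of 8 called lower. Of 8 Schwann cell markers 4 were called lower, their sum being 14.9 to 23.4 CPM in denervated WT and 83.3 to 156 CPM in innervated WT muscle. No marker of these lists was at 0. Their part in the change of Utrn was not tested, and in whole muscle fewer cells of a type and less RNA per cell cannot be told apart.

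Dag1, the laminin receptor, had 231, 201 and 242 CPM in denervated WT muscle, against 264, 233 and 318 CPM in innervated WT muscle. The groups overlapped, and the log2 fold change was −0.27 ± 0.14 (adjusted p = 0.161, edgeR).

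The 3 sarcoglycans differed from one another. Sgcd, delta-sarcoglycan, had 22.7, 14.5 and 15.9 CPM in denervated WT muscle, against 29.5, 25.2 and 26.6 CPM in innervated WT muscle. The groups did not overlap in CPM, and the denervated library nearest to the innervated ones was library 1. Against library totals without the normalisation factors the groups did overlap. Denervated library 1 then had 943 of 38347204 counts and innervated library 1 had 600 of 24619026. Sgcd fell by 0.61 ± 0.17 (log2; 0.654-fold; adjusted p = 0.0207, edgeR). That call was lost without denervated library 2 (adjusted p = 0.0708), denervated library 3 (0.0735) or innervated library 1 (0.0678), and without the 2 libraries that stand apart Sgcd fell by 0.88 (adjusted p = 0.00315).

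Sgca had 176, 238 and 301 CPM in denervated WT muscle, against 163, 187 and 185 CPM in innervated WT muscle. Denervated libraries 2 and 3 were above all innervated ones and library 1 was among them (log2 fold change 0.42 ± 0.19, adjusted p = 0.120, edgeR). It was called without denervated library 1, at 0.60 (adjusted p = 0.0273, edgeR), and without the 2 libraries that stand apart, at 0.64 (adjusted p = 0.0322). Sgcb, beta-sarcoglycan, had the smallest fold change of the 8, with 115, 117 and 108 CPM in denervated WT muscle and 116, 110.2 and 127 CPM in innervated WT muscle (log2 fold change −0.05 ± 0.10, adjusted p = 0.707, edgeR).

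Sntb1, beta-1-syntrophin, was the lowest of the 8 genes, with 17.7, 8.28 and 7.14 CPM in denervated WT muscle, against 6.06, 8.30 and 6.41 CPM in innervated WT muscle. Denervated library 1 alone stood above the innervated range, and the gene was not called (log2 fold change 0.67 ± 0.33, adjusted p = 0.147, edgeR). With no filter on low counts it was (adjusted p = 0.0278), and without the 2 libraries that stand apart the log2 fold change was 0.31 (adjusted p = 0.383). That library also held the most macrophage RNA of its group: 9 macrophage markers summed to 411 to 841 CPM in denervated WT muscle, highest in library 1, and to 111 to 348 CPM in innervated WT muscle, with 7 of 9 called higher. Their part in the Sntb1 values was not tested.

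Jup, plakoglobin, showed the largest change of the 8 in this comparison. It had 171, 231 and 312 CPM in denervated WT muscle, against 117, 131 and 143 CPM in innervated WT muscle. Every denervated library lay above every innervated one, and the denervated values spread widely. Jup rose by 0.87 ± 0.20 on the log2 scale (1.82-fold; adjusted p = 0.00956, edgeR), and it was called with each library left out in turn, at 0.62 to 1.06, and without the 2 libraries that stand apart at 1.07. Plakoglobin is abundant in skin, and the 6 epidermis markers summed to 2.35 to 2.82 CPM in denervated WT muscle and 3.1 to 3.89 CPM in innervated WT muscle. Only 2 of the 6 markers passed the filter on low counts, and neither was called. Their part in the Jup values was not tested.

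**Figure D2:**
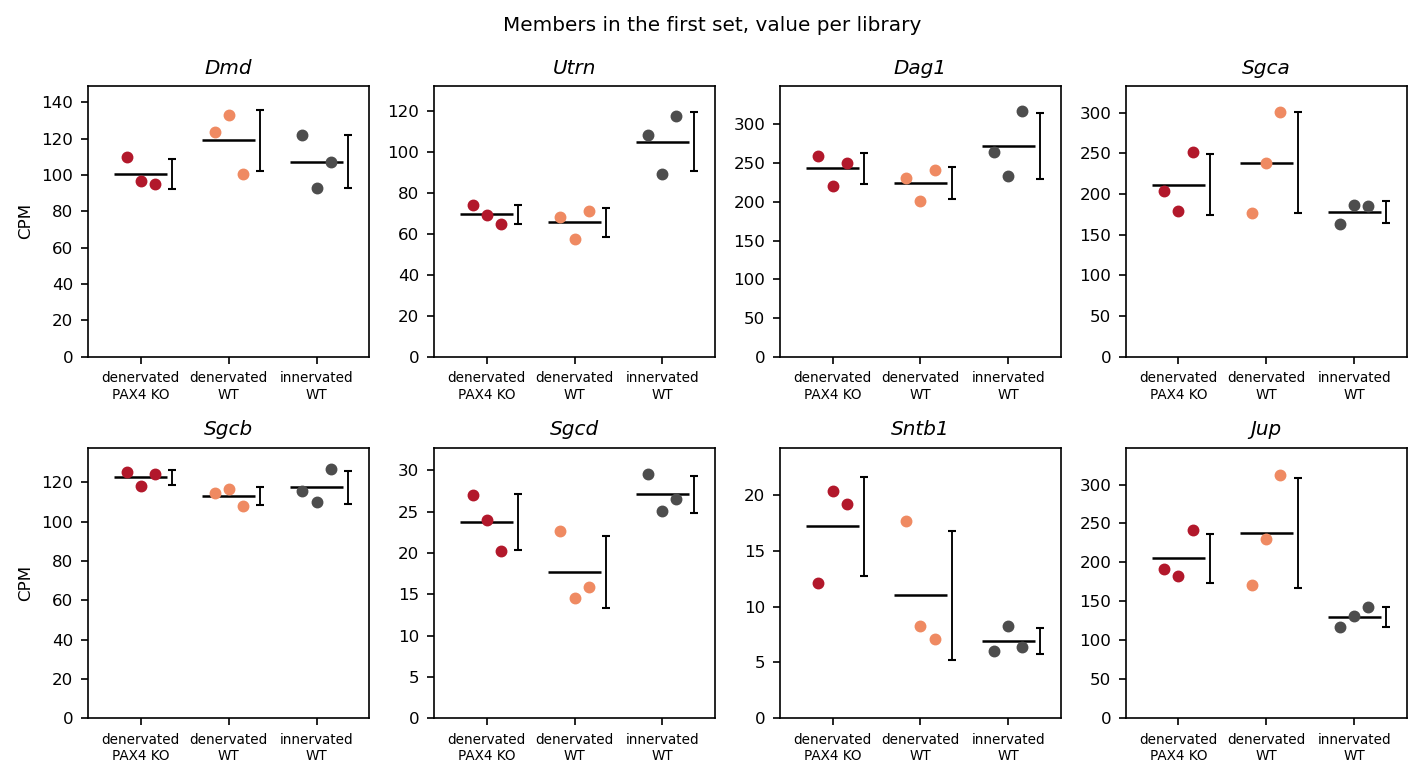
CPM of each gene in the 9 libraries of the first set, with libraries 1 to 3 from left to right in each group, the group mean as a horizontal bar and the SD beside it. Utrn is lower and Jup higher in both denervated groups than in innervated WT muscle, while Sgcb is nearly level at 108 to 127 CPM.

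Jup and Sgca tracked each other from library to library, with Pearson's r of log2(CPM + 1) at 0.917 over the 9 libraries of the first set. This was the highest r of any pair of the 8 genes there, and it also carries the difference between groups. It is not particular to the pair, since Jup was closer to Mid1 (0.985) and Sgca to Cacnb1 (0.980), both outside the complex. How many genes reach such an r was not counted. In denervated WT muscle both were lowest in library 1 and highest in library 3, with 0.969, 0.968 and 1.04 Jup reads per Sgca read. In denervated PAX4 KO muscle both were lowest in library 2 and highest in library 3, and the ratio was 0.939, 1.02 and 0.957. In innervated WT muscle it was 0.719, 0.703 and 0.772. Within a group the ratio thus stayed within a narrow band while Jup itself varied 1.83-fold between denervated WT libraries, and both denervated groups lay above the innervated one.

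**Figure D3:**
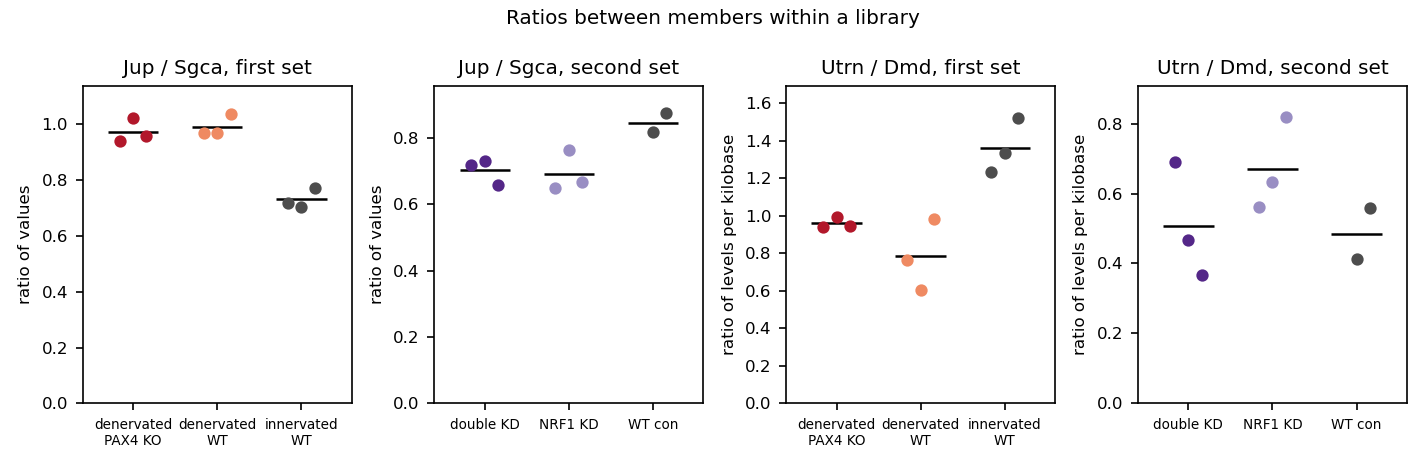
Ratios within each library: Jup over Sgca in CPM or normalised counts (left pair), and Utrn over Dmd per kilobase of merged exons (right pair), in the first and the second set; points are libraries and bars are means. Jup over Sgca is 0.939 to 1.04 in the denervated groups of the first set and 0.703 to 0.772 in innervated WT muscle, and in the second set 0.648 to 0.762 in the knockdowns and 0.816 to 0.874 in WT con.

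The other genes of the complex and its partners were read from 6 lists. Their counts of calls for denervation stand beside 16.5% higher and 15.8% lower over all genes. Of 9 further genes of the complex, 4 fell and none rose with denervation in WT muscle, with a median log2 fold change of −0.22. Nos1, the neuronal nitric oxide synthase that syntrophin holds at the membrane, fell to 54.4 ± 1.92 CPM in denervated WT muscle, against 157 ± 19.2 CPM in innervated WT muscle (log2 −1.52, adjusted p = 0.000481, edgeR). Sspn, sarcospan, a membrane partner of the sarcoglycans, fell to 55.9 ± 5.71 CPM in denervated WT, against 88.3 ± 7.69 CPM in innervated WT muscle (log2 −0.66, adjusted p = 0.00175).

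Of 17 genes for the sugar chains of dystroglycan 1 rose and 2 fell, with a median of −0.03. Pomgnt2, which adds N-acetylglucosamine to dystroglycan, fell by 0.56 on the log2 scale (adjusted p = 0.00412, edgeR). Pomt1, an O-mannosyltransferase, rose by 0.31 (adjusted p = 0.0373).

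On the matrix side, 1 of 14 genes for laminins and other ligands rose and 4 fell. Bgn, the proteoglycan biglycan, rose to 374 ± 39.7 CPM in denervated WT, against 136 ± 61.6 CPM in innervated WT muscle (log2 1.46, adjusted p = 0.00219). Lama4, a laminin chain of blood vessels, fell by 0.67 (adjusted p = 0.00367), and Hspg2, perlecan, fell by 0.61 (adjusted p = 0.0171).

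The integrin alpha7 beta1 linkage is the other laminin receptor system of the fibre. Of its 10 genes 1 rose and 4 fell: Itgb1 rose by 0.47 (adjusted p = 0.0137), whereas Tln2, a talin enriched in muscle, fell by 0.70 (adjusted p = 0.00472) and Itgb1bp2, melusin, by 0.65 (adjusted p = 0.0113).

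Of 11 measured partners of plakoglobin 2 rose with Jup and 2 fell. Pkp2, the desmosomal plakophilin 2, rose to 7.36 ± 0.42 CPM in denervated WT, against 2.78 ± 0.87 CPM in innervated WT muscle (log2 1.39, adjusted p = 0.00136), and Ctnna1, alpha-catenin, rose by 0.45 (adjusted p = 0.0132). Irs1, the insulin receptor substrate, fell to 12.7 ± 2.08 CPM in denervated WT, against 57.5 ± 18.2 CPM in innervated WT muscle (log2 −2.17, adjusted p = 0.000339), and Ctnna3 fell by 1.05 (adjusted p = 0.00878). Of 15 linkers and membrane repair genes 1 rose, Flnc, a filamin that binds sarcoglycans (log2 1.36, adjusted p = 0.00504), and 4 fell, among them Capn3, a muscle calpain (log2 −0.99, adjusted p = 0.00355), and Mark2 (log2 −0.37, adjusted p = 0.0158).

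Loss of PAX4 in denervated muscle was examined next. No gene of the complex was called. Over all genes 3 of 16146, 0.0186%, passed in this comparison with edgeR, 192 with DESeq2, 456 with edgeR and no filter on low counts, and 169 without the 2 libraries that stand apart, and none of these fits called any of the 8. At an unadjusted p under 0.05 there was 1 of the 8, Sgcd, beside 12.9% of all genes.

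Sgcd had 26.98, 23.96 and 20.2 CPM in denervated PAX4 KO muscle, against 22.7, 14.5 and 15.9 CPM in denervated WT muscle. The KO values overlapped the WT range through WT library 1 (log2 fold change 0.42 ± 0.17, unadjusted p = 0.0325, adjusted p = 0.360, edgeR). Without the 2 libraries that stand apart it was 0.63 (adjusted p = 0.0630). Sntb1 had 12.1, 20.3 and 19.2 CPM in denervated PAX4 KO muscle, so KO library 1 lay below WT library 1 (17.7 CPM) and the other two above it (log2 fold change 0.64 ± 0.32, adjusted p = 0.424, edgeR). Without the 2 libraries that stand apart that difference was 1.15 (adjusted p = 0.0544).

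The remaining members differed less between the denervated groups. Sgcb had 125, 118 and 124 CPM in denervated PAX4 KO muscle, all above the 108 to 117 CPM of denervated WT muscle, with a log2 fold change of 0.12 ± 0.10 (adjusted p = 0.621, edgeR). Jup had 191, 183 and 241 CPM and Sgca 203, 179 and 252 CPM in the KO, both within the denervated WT range (log2 −0.21 ± 0.20 and −0.17 ± 0.19). Dmd had 109.8, 96.6 and 95.2 CPM, Utrn 74.2, 69.1 and 64.9 CPM and Dag1 259, 220.3 and 249.8 CPM in the KO (log2 −0.24, 0.08 and 0.11).

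Macrophage markers summed to 750 to 1308 CPM in denervated PAX4 KO and 411 to 841 CPM in denervated WT muscle, with KO library 2 highest, and 0 of 9 were called. Markers of fibro-adipogenic progenitors, the connective tissue cells of muscle, summed to 2299 to 5855 CPM in denervated PAX4 KO and 1471 to 1912 CPM in denervated WT muscle, with 0 of 6 called. Their part in the Sgcd and Sntb1 values was not tested.

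None of the 6 partner lists held a gene called by edgeR between the denervated groups. At an unadjusted p under 0.05 there were 3 of 9 further genes of the complex, 2 of 17 for the sugar chains, 2 of 10 of the integrin linkage, 1 of 11 partners of plakoglobin and 5 of 15 linkers and repair genes, beside 12.9% of all genes. The list with the largest median was that of matrix ligands, at 0.45 on the log2 scale against 0.01 over all genes, with 8 of 14 at an unadjusted p under 0.05. Its gene with the smallest p was Lamb1, a laminin chain, at 59.7 ± 5.39 CPM in denervated PAX4 KO and 40.0 ± 8.84 CPM in denervated WT muscle (log2 0.58, adjusted p = 0.283, edgeR).

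Against innervated WT muscle, denervated PAX4 KO muscle differed at 3 of the 8 genes, beside 40% of all genes called (21.8% higher and 18.2% lower). Utrn was lower (log2 −0.59 ± 0.13, 0.663-fold, adjusted p = 0.00535, edgeR), and Sntb1 (1.31 ± 0.33, 2.47-fold, adjusted p = 0.0106) and Jup (0.66 ± 0.20, 1.57-fold, adjusted p = 0.0267) were higher. The Sntb1 libraries of the 2 groups did not overlap. Beside these changes 9 of 9 macrophage markers were higher (sums of 750 to 1308 CPM in denervated PAX4 KO and 111 to 348 CPM in innervated WT muscle), 8 of 9 endothelial markers lower (498 to 684 and 872 to 951 CPM) and 5 of 8 markers of smooth muscle and pericytes lower (509 to 785 and 1079 to 1391 CPM), and their part was not tested. The Jup call was lost without KO library 3 (adjusted p = 0.0955) or any innervated library (0.0511 to 0.102). Sgcd was not called here (log2 −0.19 ± 0.17, adjusted p = 0.402, edgeR). This comparison shares its innervated libraries with that of denervated WT muscle, so the 2 are not independent.

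The genes whose level over the 9 libraries of the first set was most like that of each member were sought among 8628 genes, by Pearson's r of log2(CPM + 1), a description that also carries the difference between groups. Utrn was most like Timp3 (r = 0.993) and Btbd7 (0.986), Jup most like Mid1 (0.985) and Sh2b1 (0.982), and Sgca most like Cacnb1 and Bag6 (0.980 each). Sgcd was most like Samd9l (0.970) and Vopp1 (0.962), Sntb1 most like Smap2 (0.989) and Metrnl (0.981), and Dag1 most like Gcnt2 (0.978) and Sema3g (0.943). For Dmd these were Cetn2 (0.946) and Cyb5r4 (0.931). For Sgcb they were Fam126b (0.914) and Iars (0.896).

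In the second set the libraries labelled NRF1 KD and double KD were set against WT con, all denervated, with Nrf1 mRNA not lower in the NRF1 KD libraries. In the muscle labelled NRF1 KD Sgcd rose and Jup fell, the reverse of their direction under denervation in WT muscle of the first set. The 2 genes of 8 stand beside 11.3% of 15624 genes called (7.58% higher and 3.72% lower). In double KD muscle Sgcd and Sntb1 rose, 2 of 8 beside 4.08% of all genes (2.39% higher and 1.7% lower). Values are normalised counts, and fold changes are on the scale of log2(normalised count + 1). The knockdown comparisons share the 2 WT con libraries and are not independent of each other.

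Sgcd had 3454, 3489 and 4617 normalised counts in double KD muscle and 3438, 3116 and 2987 in NRF1 KD muscle, against 1795 and 2065 in WT con muscle. All 6 knockdown libraries lay above both WT con libraries. It rose by 0.99 ± 0.14 in the double KD (1.98-fold; adjusted p = 0.00684, limma) and by 0.72 ± 0.14 in the NRF1 KD (1.65-fold; adjusted p = 0.0104, limma). Between the double KD and the NRF1 KD it did not pass (0.27 ± 0.12, adjusted p = 0.455, limma).

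The ratio of Sgcd to Sgcb within a library, in normalised counts, was 0.801 to 0.946 in double KD muscle and 0.802 to 0.821 in NRF1 KD muscle, against 0.378 and 0.480 in WT con muscle. Sgcb itself had 3882, 4356 and 4881 normalised counts in double KD and 4188, 3886 and 3689 in NRF1 KD muscle, against 4754 and 4299 in WT con muscle, and was not called (log2 −0.05 ± 0.11 and −0.21 ± 0.11). Delta- and beta-sarcoglycan form the core of the sarcoglycan subcomplex, and these values show a change in one transcript with no call in the other.

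Sntb1 had 402, 700 and 686 normalised counts in double KD muscle and 396, 523 and 361 in NRF1 KD muscle, against 229 and 252 in WT con muscle. All 6 knockdown libraries were again above both WT con libraries. It rose by 1.26 ± 0.24 in the double KD (2.40-fold; adjusted p = 0.0225, limma), and in the NRF1 KD its difference of 0.81 ± 0.24 missed the threshold (adjusted p = 0.0568, limma). With edgeR on the recovered reads the NRF1 KD difference passed (adjusted p = 0.0488). With only the groups compared in the fit the NRF1 KD difference passed too (adjusted p = 0.0320, limma) and the double KD call was lost (adjusted p = 0.0522, limma).

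Jup had 5977, 5515 and 4881 normalised counts in double KD muscle and 4980, 5958 and 4647 in NRF1 KD muscle, against 6984 and 7724 in WT con muscle. All 6 knockdown libraries lay below both WT con libraries. It fell by 0.51 ± 0.13 in the NRF1 KD (0.703-fold; adjusted p = 0.0304, limma), and the double KD difference of −0.43 ± 0.13 did not pass (adjusted p = 0.0831, limma). In the authors' deposited table the adjusted p of Jup was 0.00565 for the NRF1 KD and 0.0358 for the double KD, and that of Sntb1 in the NRF1 KD was 0.0109. The ratio of Jup to Sgca was 0.657 to 0.729 in double KD and 0.648 to 0.762 in NRF1 KD muscle, against 0.816 and 0.874 in WT con muscle.

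Of the members that were not called, Sgca had 8318, 7560 and 7429 normalised counts in double KD and 7682, 7822 and 6978 in NRF1 KD muscle, against 8556 and 8839 in WT con muscle. It was below both WT con libraries in all 6 knockdown libraries, with log2 fold changes of −0.16 ± 0.10 and −0.22 ± 0.10 (adjusted p = 0.367 and 0.179, limma). Dmd had 2451, 3298 and 4323 in double KD and 2993, 2460 and 2303 in NRF1 KD muscle, against 3025 and 2832 in WT con muscle, so its values spread most in the double KD. Utrn had 1213, 1106 and 1143 in double KD and 1208, 1119 and 1354 in NRF1 KD muscle, against 898 and 1136 in WT con muscle (log2 0.19 ± 0.13 and 0.28 ± 0.13). Per kilobase, its ratio to Dmd was 0.368 to 0.689 in double KD and 0.561 to 0.818 in NRF1 KD muscle, against 0.413 and 0.558 in WT con muscle. Dag1 had 5042, 5408 and 4954 in double KD and 4338, 4623 and 4402 in NRF1 KD muscle, against 4243 and 4974 in WT con muscle.

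**Figure D4:**
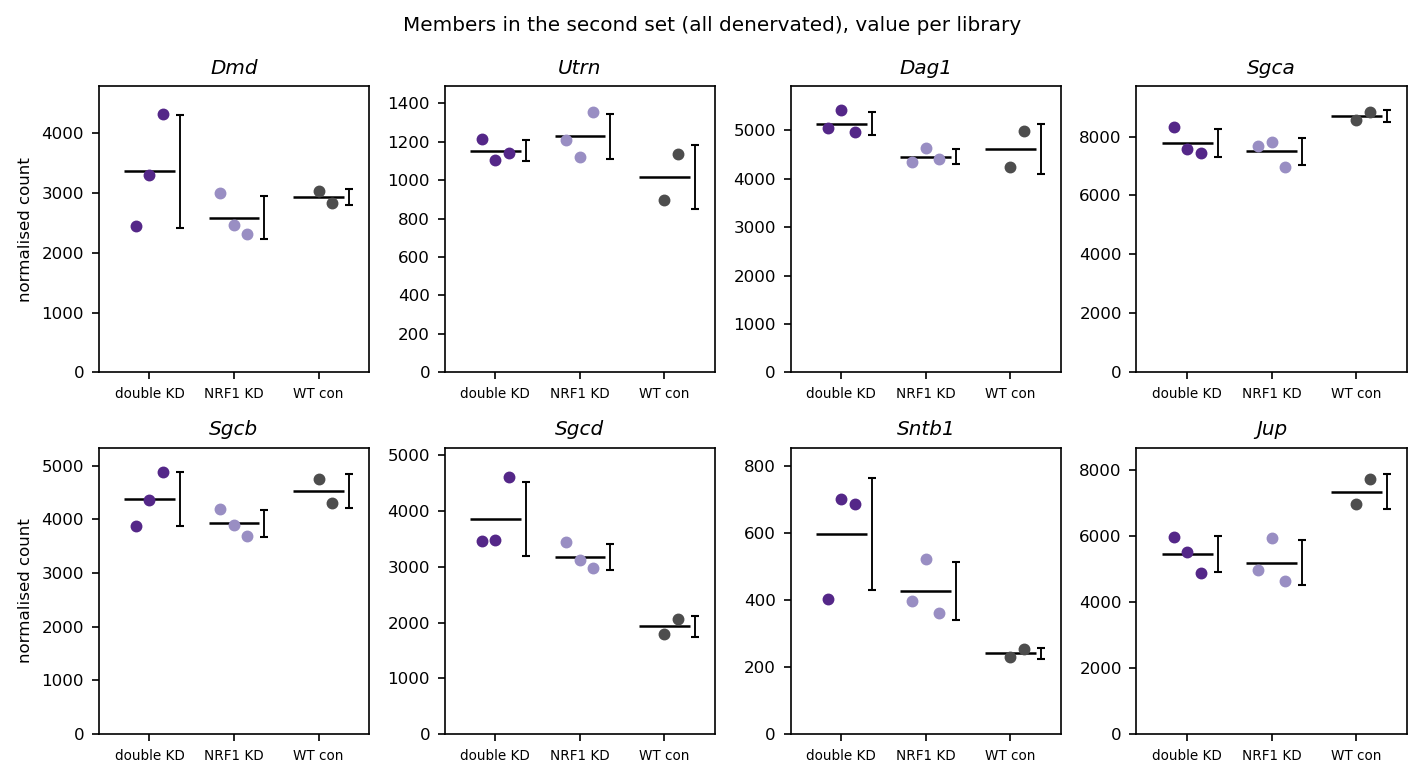
Normalised counts of each gene in the 8 libraries of the second set, all denervated, in the order double KD, NRF1 KD and WT con, with libraries from left to right, the group mean as a bar and the SD beside it. Sgcd and Sntb1 are higher and Jup lower in all 6 knockdown libraries than in both WT con libraries.

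Between double KD and NRF1 KD muscle no gene of the complex passed, beside 0.134% of all genes (0.0768% higher and 0.0576% lower). At an unadjusted p under 0.05 there was 1 of 8, beside 11.2% of all genes. It was Dag1 (log2 0.20 ± 0.09, unadjusted p = 0.0410, adjusted p = 0.411, limma), and edgeR on the recovered reads also called 0. The largest difference was that of Sntb1 (0.46 ± 0.22, adjusted p = 0.464, limma).

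The calls in the second set rest on 2 WT con libraries. Without WT con library 2 no member was called in either knockdown, the lone WT con library then being assumed to vary like the other groups: Sgcd stood at 0.89 (adjusted p = 0.0671) in the double KD and 0.62 (0.0873) in the NRF1 KD, and Sntb1 at 1.19 (0.143) in the double KD. Sgcd stayed called without any other library. The Sntb1 call in the double KD was also lost without double KD library 2 (adjusted p = 0.0860) or 3 (0.0522). The Jup call in the NRF1 KD held without NRF1 KD library 2 and was lost without NRF1 KD library 1 (adjusted p = 0.0709), NRF1 KD library 3 (0.118), WT con library 2 (0.0931) or WT con library 3 (0.134), at −0.61 to −0.43 on the log2 scale. Macrophage markers summed to 13649 to 21750 normalised counts in double KD and 17550 to 35654 in NRF1 KD muscle, against 7584 to 10086 in WT con muscle, with 1 and 9 of 9 called higher. Fibro-adipogenic markers summed to 34535 to 73641 in double KD and 42876 to 66948 in NRF1 KD muscle, against 19005 to 36877 in WT con muscle, with 2 and 3 of 6 called higher. Of 7 genes that denervation induces, 4 fell and 1 rose in double KD and 5 fell in NRF1 KD muscle, and their sums were 63556 to 68347 and 55197 to 67977, against 117714 to 126325 in WT con muscle. The part of these in the values of Sgcd, Sntb1 and Jup was not tested.

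Around the complex, Sntb2, beta-2-syntrophin, had 424 ± 41.4 normalised counts in NRF1 KD muscle, against 231 ± 55.9 in WT con muscle. It rose by 0.89 (log2, adjusted p = 0.0181, limma). This was the only call there among 9 further genes of the complex, beside 11.3% of all genes. In double KD muscle 0 of these 9 were called, with 2 at an unadjusted p under 0.05, beside 21.4% of all genes. Over all genes 2.39% were called higher in double KD and 7.58% in NRF1 KD muscle. Of the 14 matrix ligands 1 rose in double KD and 4 rose in NRF1 KD muscle. They included Lamc1, the laminin gamma-1 chain (log2 0.68, adjusted p = 0.0410 in double KD, and 0.57, adjusted p = 0.0433 in NRF1 KD muscle, limma), and Col6a3, a collagen VI chain (1.13, adjusted p = 0.0115 in NRF1 KD muscle).

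Of 15 linkers and repair genes 2 rose in double KD muscle, and 4 rose and 1 fell in NRF1 KD muscle. The shares over all genes were 2.39% higher in double KD, and 7.58% higher and 3.72% lower in NRF1 KD muscle. Anxa2, an annexin of membrane repair, had 3766 ± 179 normalised counts in double KD and 4683 ± 657 in NRF1 KD muscle, against 2094 ± 453 in WT con muscle (log2 0.86 and 1.17, adjusted p = 0.0157 and 0.00276, limma). Trim72, or MG53, which seals membrane tears, rose by 0.69 and 0.54 (adjusted p = 0.0167 and 0.0193). Dysf, dysferlin, a repair protein too, fell by 0.81 in NRF1 KD muscle (adjusted p = 0.0423). None of 15 measured genes for the sugar chains, 10 of the integrin linkage or 9 partners of plakoglobin was called in either knockdown by limma, with 1 and 3, 3 and 1, and 6 and 6 at an unadjusted p under 0.05 in double KD and NRF1 KD muscle, beside 21.4% and 27.6% of all genes.

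**Figure D5:**
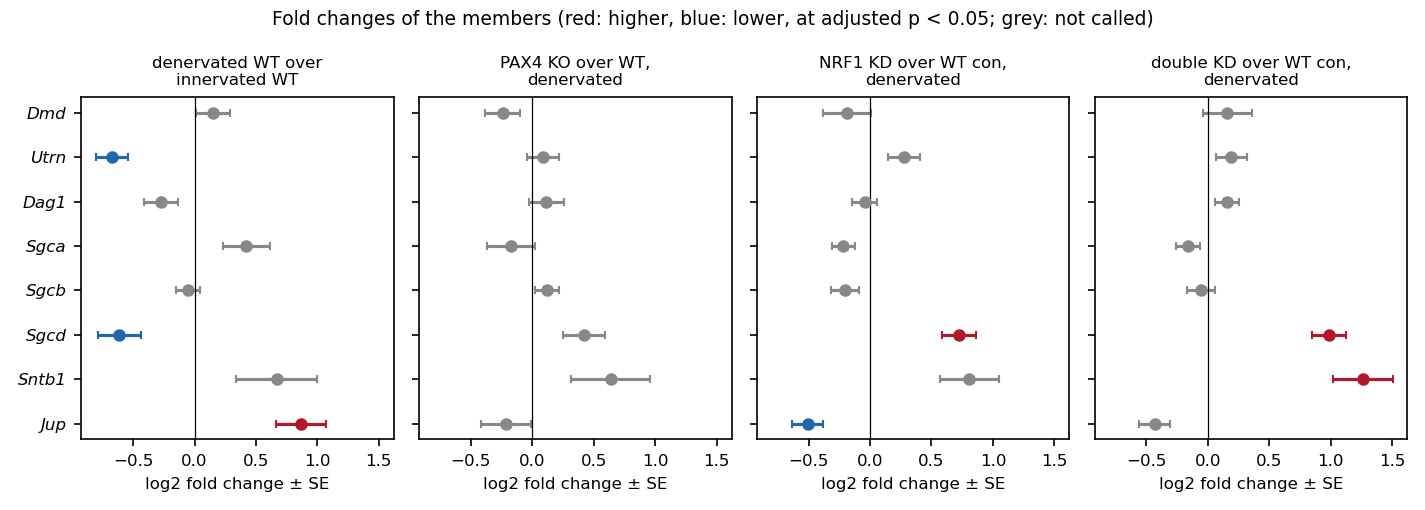
Log2 fold changes (points) with their SE (bars) for the 8 genes in 4 comparisons, each as the first group over the second; red and blue mark calls at an adjusted p under 0.05. Jup is above 0 and Sgcd below 0 for denervation in WT muscle, and the reverse holds in both knockdowns, where Sntb1 is also above 0.

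The log2 fold changes of the 8 genes in the knockdowns and in WT denervation are set side by side here. No share of opposite signs over all genes was worked out, so the signs are not read as a trait of the complex. The sets were made and scaled apart and share no library. For Jup the log2 values were −0.43 in the double KD, −0.51 in the NRF1 KD and 0.87 for denervation, for Sgcd 0.99, 0.72 and −0.61, and for Utrn 0.19, 0.28 and −0.68. Sntb1 had positive values in all, at 1.26, 0.81 and 0.67. The genes called in none of these comparisons stood, in the same order, at 0.16, −0.19 and 0.15 (Dmd), and 0.16, −0.05 and −0.27 (Dag1). Sgca stood at −0.16, −0.22 and 0.42, and Sgcb at −0.05, −0.21 and −0.05, and neither was called.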

How the data were processed

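RNA was taken with TRIzol and made into libraries with a SMARTER mRNA-Seq kit, per the labels' protocols; builds GRCm38 and mm10 are named in the submitters' processing notes, with the aligner and counter not given in the sources used here. Unscaled gene counts of 9 libraries, as the authors deposited them, make up the first set. For the second, the authors deposited variance-stabilised log2 values for 8 libraries, a mean signal per gene, and log2 fold changes and p-values of their own tests. Numbers in the first set's column names are in no label, so each column was given a group only, and libraries are called 1 to 3 in ascending order of these numbers. Of 23 labelled samples 17 had a column; WT con library 1, the 2 samples labelled WT Innervated and the 3 Den_14d samples were not analysed here.

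The log2 values were inverted to normalised counts, whose mean deviated from the deposited signal by at most 3.34e-07%, and the reads recovered from them were whole numbers to within 0.05 in 100% of cases. Counts were tested with edgeR 4.0.16 (R 4.3.3; TMM, filterByExpr, quasi-likelihood) and normalised counts with limma 3.58.1 (trend, pseudocount 1), each set in 1 fit, after a check on simulated data. The SE of an edgeR fold change was taken from its F statistic. Alternatives were DESeq2 1.42.0 and its size factors, no filter on low counts or a mean of at least 100 normalised counts, other pseudocounts (0.1 and 5), edgeR on recovered reads, only the groups compared, a replicate block and each library left out. Leaving out innervated library 2 and denervated WT library 1 was added after seeing the data.

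The 8 genes and all lists were chosen with earlier results of these data known. Per list and comparison, up to 2 called genes in each direction by smallest adjusted p are named, or the gene of smallest p where none was called, and the 2 genes most like each member among those with a mean of at least 8 CPM. A result for 1 gene named by these rules is left out of the text. Exon lengths are from GENCODE M21 and promoters from RefSeq (GRCm38.p6).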

Additional observations from a re-analysis of the deposited data

How the results depend on the processing

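Over 568 alternative values of single genes, 536 kept their direction and their side of the threshold, 18 lost and 5 gained a call, and 9 changed sign. All 9 were uncalled genes near 0 with 1 library left out, and the values over the libraries left out ran, for PAX4 KO against WT, denervated, from −0.00063 to 0.14 (Utrn), −0.35 to 0.028 (Sgca) and −0.40 to 0.031 (Jup); for PAX4 KO against innervated WT from −0.19 to 0.0021 (Dmd); for NRF1 KD against WT con from −0.16 to 0.069 (Dag1); for double KD against WT con from −0.042 to 0.37 (Dmd) and −0.14 to 0.029 (Sgcb, also 0.018); and for double KD against NRF1 KD from −0.0022 to 0.18 (Jup). The number of members called with 1 library left out was 0 to 2 in the NRF1 KD and 0 to 2 in the double KD, 2 to 4 for denervation in WT muscle, and 2 to 3 for PAX4 KO against innervated WT muscle. In the double KD it was 1 with only the groups compared. Among all genes, PAX4 KO against WT gave 192 calls with DESeq2, 456 with no filter and 169 without the 2 libraries that stand apart, against 3; double KD against WT con gave 231 with only the groups compared, and 86 to 692 with 1 library left out, against 638; NRF1 KD against WT con gave 550 to 1611 with 1 library left out, against 1765; double KD against NRF1 KD gave 1 to 158, against 21. Lengths of the longest transcript in place of merged exons put innervated Jup at 40.7 RPKM, Utrn at 8.46, Dmd at 7.19 and Sgcd at 6.09. Innervated Jup then stood above Sgcb, and some neighbours in the innervated order overlapped. In both denervated groups Jup and Dag1 then lay apart. The RPKM were higher with these lengths because the same CPM were divided by fewer bases (3205 against 6436 for Jup). The cause of the shifts in calls and signs was not tested.

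The main fits used no replicate block, since the labels name no pairs. The denervated and innervated WT columns share their numbers, however, and may come from the same animals. Deviations of same-numbered libraries there correlated at r = 0.184, 0.086 and 0.354, all above the −0.245 to 0.061 of differently numbered ones. In the second set same-numbered libraries had r = −0.453 to 0.373. Whether the WT libraries are paired was not settled, and the denervation p-values of the main fit are unpaired. With the replicate block 3 members were called for denervation, 1 in the NRF1 KD (Jup lost, adjusted p = 0.0909), 2 in the double KD and 0 between the knockdowns, and 630, 136 and 9 of all genes in the second set's comparisons, against 1765, 638 and 21. No paired analysis was possible for the PAX4 KO because its columns share no number with the WT columns. Sntb1, at 123 to 785 counts per library, had the largest SE of the members in the first set (0.33 for denervation, log2).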

Other observations

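The make-up of the complex in denervated WT muscle differed between the sets, which were processed separately. Sgcd took 5.89 to 6.43% of the reads of the 8 genes in WT con muscle of the second set, and 1.37 to 2.45% in denervated WT muscle of the first. Sgcd reads per Dmd read were 0.593 and 0.729 in WT con muscle and 0.109 to 0.184 in denervated WT muscle. Dmd took 8.82 to 9.93% and 8.69 to 13.4% in the same order, and Utrn 2.95 to 3.54% and 5.76 to 7.35%. No test was made between the sets.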
